A study of Mus musculus with 12 samples.

Results

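The comparison described here sets the striatum of wild-type mice given PLX3397 against that of wild-type mice given vehicle. Libraries were assigned by their labels, with 3 PLX3397 libraries and 3 vehicle libraries, 1 per mouse, which make up 6 of the 12 libraries in the series. All mice were C57BL/6, PLX3397 was given in chow at 275 ppm, and treatment ran from 7 to 11 weeks of age. The other 6 libraries came from R6/2 mice, transgenic for part of a mutant huntingtin gene, with 3 mice on vehicle and 3 on the same drug dose over the same weeks. They entered the fit to estimate the spread between mice, and their response to the drug is given only where it bears on that of the wild type. Striatum was dissected by hand and bulk RNA was sequenced, so every value is a level in the whole dissected tissue. The labels describe the treatment as a depletion of microglia, and the comparison asks what else differs in a striatum without the Huntington mutation when they are removed.

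Microglia are the resident macrophages of the brain, and they depend throughout life on signalling through the receptor tyrosine kinase Csf1r. Its ligands are Csf1, made largely by glia, and Il34, made largely by neurons. PLX3397 blocks the kinase domain of Csf1r and, as background, also acts on the related kinases Kit and Flt3, so cells that use those receptors are possible direct targets as well.

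Values are log2 CPM, reads per gene scaled to the size of the library, on a log2 scale, for 15397 genes, and a value of -3.46 stands for 0 reads. The 6 wild-type libraries held 19206650 to 23294228 reads assigned to genes. Changes are log2 differences, PLX3397 minus vehicle, ± SE, from limma over all 12 libraries (n = 3 mice in each group) with Benjamini-Hochberg adjustment, and called genes are those with an adjusted p under 0.05. A held call is one that held in the fit and in every alternative that tested the gene, out of 19 other ways of processing or leaving out libraries. Genes with few reads, Spi1 and Mrc1 among them, were tested in 18, as a filter of 5 CPM in 6 libraries left them out. Genes without a known GC content were not tested with the GC trend removed. The dissections varied. Summed over 5 cortical neuron markers, PLX3397 library 1 had 63.3 CPM, the other 2 PLX3397 libraries 596 and 911, and the vehicle libraries 206 to 563. Summed over 4 measured choroid plexus markers, PLX3397 library 1 stood apart at 1036 CPM, against 53.8 to 106 in the other wild-type libraries. Summed over 6 markers of thalamus, septum and pallidum, the vehicle libraries had 129.5, 320.4 and 284 CPM and the PLX3397 libraries 48.4, 228 and 51.1 (44.6% left). Over the 25 genes on the list of these regions the means were 3.65 to 4.14 log2 CPM on vehicle and 2.49 to 3.6 on PLX3397, without overlap. The median change was -0.85, and 2 genes were lower (8%, near the 8.3% of all genes). The 8 markers of striatal projection neurons summed to 2164 to 5534 CPM on vehicle and 5032 to 9864 on PLX3397, so the labelled tissue was present in every library. The relation of level to transcript GC content also differed between the groups, as given with the genes that rose.

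On PLX3397, 913 genes were higher (5.93% of those tested) and 1278 lower (8.3%), and 5246 genes had an unadjusted p under 0.05. The large changes ran in 1 direction. Of the called genes, 46 were more than 16-fold lower, and 28 of these 46 were on lists of microglial or other myeloid genes. Those lists, counted with the complement and Csf1r lists, hold 122 of the 15397 genes. They were chosen with earlier results of these data known. By contrast, 5 called genes were more than 4-fold higher, against 215 more than 4-fold lower. Groups did not overlap for 2900 genes that were higher (18.8%) and 2661 that were lower (17.3%). Held calls were far fewer, with 16 higher (0.104%) and 156 lower (1.01%), and 45 of these 156 stood on myeloid lists. The count of calls fell to 228 without vehicle library 1, to 242 without vehicle library 2 and to 935 without PLX3397 library 2. When only the 6 wild-type libraries were fitted, 43 genes were higher (0.279%) and 308 lower (2%).

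Csf1r, the target of the drug and the defining receptor of microglia, lost almost all of its RNA. The gene (NCBI gene 12978; chromosome 18, 61105572 to 61131139, GRCm38, protein coding) was at 6.62, 6.74 and 6.63 log2 CPM in vehicle libraries 1 to 3 and at 1.52, 1.65 and -1.04 in PLX3397 libraries 1 to 3. The groups were far apart, and PLX3397 library 3 was the lowest. In reads this was 1777, 2367 and 2314 against 54, 70 and 8, which left 2.05% of the vehicle CPM. The log2 change was -5.95 ± 0.68 (limma adjusted p = 0.000754), a held call. In bulk tissue, fewer microglia and less RNA per microglial cell cannot be told apart.

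The ligands of the receptor were not among the called genes. Csf1 stood at 4.78, 4.78 and 4.59 log2 CPM on vehicle and at 5.05, 4.70 and 4.41 on PLX3397, and its change was 0.01 ± 0.20 (limma adjusted p = 0.988). Il34 stood at 5.68, 5.72 and 5.63 on vehicle and at 6.42, 6.10 and 6.32 on PLX3397. All 3 PLX3397 values of Il34 lay above all 3 vehicle values, but its change of 0.60 ± 0.19 missed the threshold (adjusted p = 0.0558; 0.00219 to 0.574 over the alternatives). A trend on GC content and length fitted to each library lowered it to 0.22. Among related receptors, Kit, which acts in mast cells, melanocytes and some neurons, changed by 0.20 ± 0.24 (adjusted p = 0.585). Flt3, the receptor of early blood progenitors, changed by -0.96 ± 0.40 (adjusted p = 0.121), with overlapping groups. Pdgfrb, the pericyte receptor closely related to Csf1r, changed by 0.43 ± 0.21 (adjusted p = 0.181).

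Of the 12 genes on the list of Csf1r, its ligands and related receptors, 4 fell (33.3%, beside 8.3% of all genes) and 0 rose. Beside Csf1r these were Csf3r, the receptor of granulocyte colony-stimulating factor, Csf2rb, the shared subunit of the GM-CSF, interleukin 3 and interleukin 5 receptors, and Pdgfra, the growth factor receptor of oligodendrocyte precursors. Csf3r went from 3.19, 3.15 and 2.82 log2 CPM to -0.49, -1.51 and -2.06 (change -4.41 ± 0.48, limma adjusted p = 0.000626). Csf2rb went from 0.45, 0.53 and 0.36 to -2.81, -1.92 and -2.40, where the PLX3397 libraries held 1 to 4 reads each (change -2.82 ± 0.39, adjusted p = 0.00276). All 4 calls were held calls.

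The genes that define resting, or homeostatic, microglia fell together. Of 36 listed genes, all measured, 31 fell and 0 rose, with a median change of -4.80, against 8.3% of all genes called lower and a median of 0.005 over all genes. Of the 31 calls, 28 were held. The list averaged 4.41, 4.37 and 4.22 log2 CPM in the vehicle libraries and 0.73, 0.97 and -0.12 in the PLX3397 libraries. The vehicle mice differed little from each other, while PLX3397 library 3 lay about a log2 unit below the other PLX3397 libraries.

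Surface receptors with which microglia sense their surroundings were among the largest falls. Cx3cr1, the receptor of the neuronal chemokine fractalkine, was at 5.85, 5.93 and 5.71 log2 CPM on vehicle and at 0.57, 0.29 and -1.37 on PLX3397 (change -6.0 ± 0.60, limma adjusted p = 0.000431). P2ry12, the purine receptor that steers microglial processes, went from 5.87, 5.65 and 5.27 to -0.05, 0.13 and -0.77 (change -5.83 ± 0.39, adjusted p = 3.25e-05). Tmem119, a surface protein by which microglia are told from blood-derived macrophages, went from 4.50, 4.47 and 4.26 to -0.21, -0.27 and -0.90 (change -4.87 ± 0.26). Tmem119 had the smallest adjusted p of all genes, 1.49e-05 by limma, and like Cx3cr1 and P2ry12 its 2 groups were separated by more than 4 log2 units. Siglech, a sialic acid binding lectin, fell from 321, 379 and 333 reads to 4, 15 and 0. P2ry13, Gpr34, Itgam and Cd53, receptors and adhesion proteins of myeloid cells, kept 1.24%, 1.56%, 1.87% and 1.01% of their vehicle CPM.

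Not every listed gene fell to this level. Trem2, the lipid-sensing receptor of microglia, was at -1.52, 0.18 and 1.01 log2 CPM on PLX3397 against 3.67, 3.56 and 3.35 on vehicle (change -3.63 ± 0.61, limma adjusted p = 0.00756). PLX3397 library 3, lowest for most microglial genes, was the highest for Trem2. The 5 listed genes that were not called were Aif1, Sparc, Cst3, Slco2b1 and Entpd1.

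Aif1, which encodes the microglial marker protein Iba1, did not follow the other genes of the list. It stood at 3.70, 3.11 and 3.27 log2 CPM on vehicle and at 2.23, 3.85 and 3.09 on PLX3397. The groups overlapped, PLX3397 library 2 was the highest of all 6 libraries, and the change was -0.30 ± 0.43 (limma adjusted p = 0.646), called in 0 of 19 alternatives. The gene kept 88.1% of its vehicle CPM where Tmem119 kept 3.07%. Cst3, the protease inhibitor cystatin C, which astrocytes also express, changed by -0.08 ± 0.17 (adjusted p = 0.782). Sparc changed by -1.24 ± 0.50 (adjusted p = 0.108), and its vehicle library 3, at 7.90 log2 CPM, was above the other vehicle libraries at 7.01 and 6.76.

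**Figure D1:**
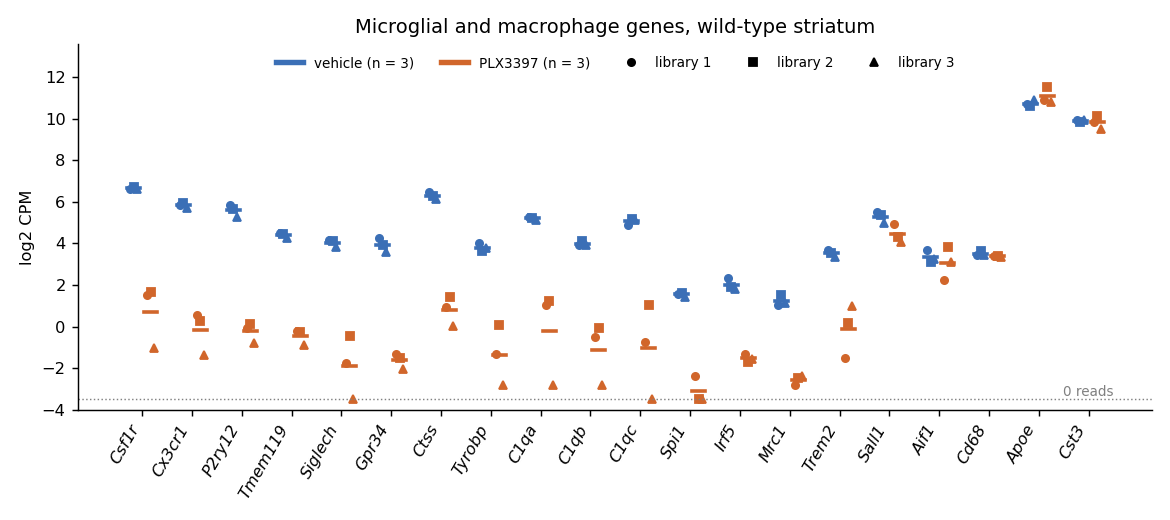
Level (log2 CPM) of 20 microglial and macrophage genes in each wild-type library, with vehicle in blue, PLX3397 in orange, a symbol for each library number and a bar at the group mean (n = 3 mice). The dotted line marks 0 reads. Genes from Csf1r to Sall1 are lower in every PLX3397 library than in any vehicle library, Csf1r at 1.52, 1.65 and -1.04 against 6.62 to 6.74, while Aif1, Apoe and Cst3 on the right overlap between the groups.

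Transcription factors that set microglial identity fell unequally. Spi1, which encodes the myeloid master factor PU.1 (NCBI gene 20375; chromosome 2, 91082374 to 91115759, GRCm38), had 52, 67 and 61 reads on vehicle and 2, 0 and 0 on PLX3397 (change -4.64 ± 0.54, limma adjusted p = 0.000972). Irf5, an interferon regulatory factor of macrophages, went from 2.34, 1.89 and 1.81 log2 CPM to -1.32, -1.70 and -1.57 (change -3.54 ± 0.37, adjusted p = 0.000515). Both were held calls. Of 17 measured members of the 20 listed factors, 7 fell and 0 rose, with a median of -0.85, beside 8.3% lower over all genes. The count was 2 without vehicle library 1 or 2 and 4 without PLX3397 library 2 or once the GC and length trend was taken out. Maf changed by -1.60 ± 0.32 (adjusted p = 0.0139) and Sall1, which is also active outside microglia, by -0.85 ± 0.23 (adjusted p = 0.0346). Both calls ended without vehicle library 1 (0.0692 and 0.134) or 2 (0.0593 and 0.118). That of Sall1 also ended without PLX3397 library 2 (0.0834) or 3 (0.0867), or with the GC and length trend removed (0.0927). Irf8 was not called (change -1.28 ± 0.48, adjusted p = 0.0880).

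Promoters of all genes, and of whole lists whether or not their members fell, were searched for the core of the PU.1 motif, GAGGAAGT, on both strands. Spi1 was nearly undetected on PLX3397, but whether its loss has a part in the falls was not tested. The window was 250 bases before to 50 bases after the RefSeq start site on GRCm38.p6. The motif was present in 5 of the 28 homeostatic microglial genes that had a promoter in the table (17.9%), in 381 of 11814 measured genes (3.22%) and in 1052 of all 32851 promoters (3.2%). It was present in 0 of 23 promoters of oligodendrocyte precursor genes and 0 of 26 of myelin genes, in 1 of 31 of projection neuron genes (3.23%), in 3 of 64 of respiratory chain genes (4.69%) and in 3 of 31 of proteasome genes (9.68%). The match is a description of these letters and does not show binding. Among the 5 genes, Ctss, Cd53, C1qc and Hpgds fell and Slco2b1 was not called.

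The promoters of the 4 genes that fell are shown to place the motif, in capitals, against the start site. Each runs 5′ to 3′ on the strand of the gene, and ACTTCCTC is the motif read on the opposite strand. They lie at chr3:95526536-95526835 (plus strand), chr3:106790100-106790399 (minus strand), chr4:136892865-136893164 (minus strand) and chr6:65144681-65144980 (minus strand).
Ctss: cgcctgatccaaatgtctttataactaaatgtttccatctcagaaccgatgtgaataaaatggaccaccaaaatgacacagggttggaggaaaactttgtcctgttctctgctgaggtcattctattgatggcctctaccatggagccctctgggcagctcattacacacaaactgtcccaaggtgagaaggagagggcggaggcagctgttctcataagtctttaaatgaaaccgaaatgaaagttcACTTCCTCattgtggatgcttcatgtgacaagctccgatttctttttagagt
Cd53: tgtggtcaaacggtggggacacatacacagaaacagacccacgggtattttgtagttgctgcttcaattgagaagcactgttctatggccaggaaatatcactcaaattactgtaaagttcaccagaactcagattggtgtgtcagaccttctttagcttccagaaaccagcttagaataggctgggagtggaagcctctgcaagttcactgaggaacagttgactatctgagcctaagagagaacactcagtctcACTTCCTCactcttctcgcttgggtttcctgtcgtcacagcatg
C1qc: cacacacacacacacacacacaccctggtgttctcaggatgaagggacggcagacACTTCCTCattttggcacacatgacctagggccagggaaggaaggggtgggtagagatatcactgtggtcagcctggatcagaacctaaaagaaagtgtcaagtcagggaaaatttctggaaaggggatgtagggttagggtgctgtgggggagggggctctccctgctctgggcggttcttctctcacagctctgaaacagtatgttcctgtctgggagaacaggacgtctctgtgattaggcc
Hpgds: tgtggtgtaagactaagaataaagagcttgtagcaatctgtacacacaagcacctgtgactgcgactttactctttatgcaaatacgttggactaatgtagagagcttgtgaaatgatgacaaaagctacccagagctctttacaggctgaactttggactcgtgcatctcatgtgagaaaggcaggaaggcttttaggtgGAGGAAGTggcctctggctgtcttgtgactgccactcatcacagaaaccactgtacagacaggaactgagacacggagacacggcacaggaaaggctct
The motif began 2 bases before the start site in Ctss, 195 before it in C1qc and 49 before it in Hpgds, and 6 bases after it in Cd53. Ctss, the lysosomal protease cathepsin S, went from 6.47, 6.30 and 6.12 log2 CPM to 0.92, 1.43 and 0.04 (change -5.50 ± 0.55, limma adjusted p = 0.000437). Cd53, a tetraspanin of blood cells, went from 157, 186 and 141 reads to 2, 3 and 0. Hpgds, the haematopoietic prostaglandin D synthase, kept 6.65% of its CPM (change -3.86 ± 0.44, adjusted p = 0.000740).

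All 3 genes of the C1q complex, which begins the classical complement cascade and tags synapses for removal, fell to near 0. C1qa had 695, 840 and 809 reads on vehicle and 38, 51 and 1 on PLX3397 (change -5.41 ± 0.86, limma adjusted p = 0.00586). C1qb went from 272, 386 and 357 reads to 12, 20 and 1 (change -5.12 ± 0.57, adjusted p = 0.000703). C1qc went from 533, 793 and 822 reads to 10, 45 and 0, and its log2 change of -6.11 ± 0.82 (adjusted p = 0.00235) was the lowest of all genes. PLX3397 library 3 was the lowest for each of them, and all 3 were held calls. Receptors for complement fragments followed, with C3ar1, the receptor of C3a, at 40, 53 and 37 reads against 3, 1 and 1 (change -3.67 ± 0.41, adjusted p = 0.000703).

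The rest of the complement list was mixed. Of 19 measured genes of the 24 listed, 7 fell (36.8%) and 1 rose (5.26%), with a median of -0.34. Over all genes 8.3% fell and 5.93% rose. C4b, made by astrocytes and oligodendrocytes, was at 5.64, 5.57 and 4.81 log2 CPM on vehicle and at 7.45, 6.90 and 6.09 on PLX3397. Its groups did not overlap and its mean CPM was 289% of that on vehicle, yet its change of 1.47 ± 0.47 missed the threshold (limma adjusted p = 0.0591; 0.0415 to 0.142 over the alternatives). C3 changed by -0.20 ± 0.60 (adjusted p = 0.840). C1s1, a serine protease partner of C1q, rose by 1.73 ± 0.52 (adjusted p = 0.0486) from 1, 13 and 12 reads to 22, 23 and 31, and the call held in 6 of 18 alternatives. It ended without any 1 library other than vehicle library 3 (0.0674 to 0.125).

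Receptors for microbial patterns and for antibodies were lower too. Of 20 measured genes of 28 on this list, 14 fell (70%, beside 8.3% of all genes) and 0 rose, with a median of -2.19. The count was 9 without vehicle library 1 and 8 without vehicle library 2, and 7 of the calls were held. Fcgr2b, the inhibitory Fc receptor, went from 60, 72 and 56 reads to 1, 2 and 1 (change -4.32 ± 0.30, limma adjusted p = 3.25e-05). Fcer1g, the signalling chain that Fc receptors share, went from 115, 114 and 133 reads to 5, 7 and 2 (change -4.29 ± 0.34, adjusted p = 0.000106). Tlr13, a sensor of bacterial ribosomal RNA, and Tlr7, a sensor of single-stranded RNA, kept 1.10% and 5.30% of their vehicle CPM. Nlrp3, the sensor of an inflammasome, fell by 3.38 (SE 0.37, adjusted p = 0.000626). These 5 were held calls, and each had groups that did not overlap.

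Genes associated with activated microglia fell in part. Of 21 measured members of the 34 listed, 4 fell, namely Cd86, Ccl6, Trem2 and Lyz2, 0 rose, and the median was 0.00. The falls were 19.05% of these genes, beside 8.3% of all genes. Cd86, a costimulatory ligand for T cells, went from 40, 46 and 39 reads to 0, 2 and 0 (change -4.18 ± 0.41, limma adjusted p = 0.000381). Ccl6, a chemokine, went from 35, 35 and 26 reads to 0, 3 and 1 (change -3.50 ± 0.45, adjusted p = 0.00174). Lyz2, a lysozyme of macrophages, fell by 2.99 (SE 0.54, adjusted p = 0.0111), a call that ended without vehicle library 1 (0.0581) or 2 (0.0537). Apoe, the lipid carrier made mostly by astrocytes, was at 10.69, 10.60 and 10.91 log2 CPM on vehicle and at 10.92, 11.53 and 10.79 on PLX3397, with overlapping groups (change 0.35 ± 0.30, adjusted p = 0.448). Cd68, a lysosomal glycoprotein often stained as a marker of phagocytes, stood at 3.43, 3.64 and 3.43 against 3.42, 3.39 and 3.34, and it kept 91.9% of its CPM (adjusted p = 0.867).

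Lysosomal genes as a whole were near their vehicle level. Of 45, all measured, 5 fell (11.1%) and 1 rose (2.22%), beside 8.3% and 5.93% of all genes, and the median was 0.03. The count of falls was 3 without vehicle library 1 or 2 or PLX3397 library 2. Among the falls were the microglial genes Ctss and Laptm5, both held calls, and Scarb2 and Ids, the latter an enzyme that removes sulfate from heparan and dermatan chains. Laptm5, a membrane protein of blood cell lysosomes, had 565, 689 and 651 reads on vehicle and 31, 19 and 2 on PLX3397 (change -5.50 ± 0.85, limma adjusted p = 0.00517). Ids fell by 0.99 (SE 0.21, adjusted p = 0.0181). Ctsa rose by 0.40 (SE 0.11, adjusted p = 0.0404). The call of Ids ended without vehicle library 1 (0.0792) or 2 (0.0651) or PLX3397 library 2 (0.0510), or with the GC and length trend removed (0.0873). That of Ctsa ended without any 1 of the 3 vehicle libraries (0.149, 0.115 and 0.0531) or PLX3397 library 2 (0.0996), and removal of the GC and length trend gave it 0.889. The proteases Ctsd (change 0.00 ± 0.17, adjusted p = 0.998) and Ctsb (change 0.33 ± 0.12, adjusted p = 0.0794) were not called.

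Of the 156 held falls, 105 were on none of the gene lists. The genes named in the rest of this paragraph were chosen after their values were seen. Vav1, an exchange factor for small GTPases, was at 2.01, 2.02 and 2.26 log2 CPM on vehicle and at -2.02, -1.70 and -2.40 on PLX3397 (change -4.13 ± 0.36, limma adjusted p = 0.000187). Dock2, an exchange factor for Rac in leukocyte migration, went from 2.24, 2.66 and 1.95 to -1.75, -1.19 and -2.40 (change -4.06 ± 0.38, adjusted p = 0.000300). Btk, a cytoplasmic kinase downstream of several immune receptors, kept 1.23% of its CPM, and Was, the Wiskott-Aldrich actin regulator, 5.87%. The groups of these 4 genes were at least 2 log2 units apart. Ncf1, a subunit of the phagocyte NADPH oxidase, changed by -3.91 ± 0.46 (adjusted p = 0.000999). Alox5, the lipoxygenase that makes leukotrienes, and its partner Alox5ap changed by -3.65 ± 0.46 (adjusted p = 0.00170) and -2.21 ± 0.33 (adjusted p = 0.00420). Mpeg1, the pore-forming protein perforin-2 of macrophages, was named by its small p and went from 688, 810 and 584 reads to 13, 24 and 18. All of these had PLX3397 values below every vehicle value. The panleukocyte surface phosphatase Ptprc, which encodes CD45, kept 4.91% of its CPM, the phospholipase-like Pld4 2.23% and the inhibitory receptor Havcr2 2.36%.

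Macrophages of the brain's borders, along vessels and meninges, also use Csf1r. Of the 14 genes on their list 5 were measured, and 3 of these fell (60%, beside 8.3% of all genes), with a median of -2.13. Mrc1, the mannose receptor of these cells, had 35, 62 and 49 reads on vehicle and 1, 2 and 2 on PLX3397 (change -3.79 ± 0.41, limma adjusted p = 0.000626), a held call. F13a1, a coagulation factor subunit, had 26, 27 and 30 reads against 0, 3 and 0 (change -3.52 ± 0.66, adjusted p = 0.0126), and Stab1, a scavenger receptor, changed by -2.13 ± 0.38 (adjusted p = 0.0105). Without vehicle library 2 these 2 calls ended (0.0574 and 0.0572), and that of F13a1 also without vehicle library 1 (0.0639). Cd163, the haemoglobin scavenger receptor, was at 3.30, 3.27 and 1.48 log2 CPM on vehicle and at 2.72, 1.99 and 2.10 on PLX3397. Its groups overlapped and it was not called (change -0.41 ± 0.73, adjusted p = 0.723). None of the 4 defining markers of monocytes and neutrophils, nor any of the 4 of T and B cells, was among the 15397 genes. Of a wider list of 28 genes of these cells 4 were measured and 0 were called, with a median of 0.62. These were Ly6c1, which endothelium also expresses (change 0.55 ± 0.20, adjusted p = 0.0770), Cd4 (1.15 ± 0.91, adjusted p = 0.395), Itgal (-0.64 ± 0.61, adjusted p = 0.491) and Lck (0.69 ± 0.36, adjusted p = 0.197). Cd4 was at 4.57 to 6.43 log2 CPM on vehicle and at 6.12 to 7.49 on PLX3397. It was lowest in vehicle library 3 and highest in PLX3397 library 1, as were the summed projection neuron markers. Which cells its RNA came from was not tested.

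Outside the myeloid lineage, genes of oligodendrocyte precursors fell in part. These cells divide in the adult brain and give rise to myelinating oligodendrocytes. Of 34 genes, all measured, 13 fell and 0 rose, with a median of -0.64, against 8.3% lower over all genes. The list averaged 4.88, 4.83 and 4.73 log2 CPM on vehicle and 4.02, 4.19 and 4.03 on PLX3397, so all 3 drug libraries were below all 3 vehicle libraries. Held calls numbered 4, and these were Pdgfra, Gpr17, Sox6 and Ptprz1. The count of falls was 13 without PLX3397 library 1, 10 without PLX3397 library 2 and 4 without vehicle library 1 or 2, and removal of the GC and length trend left 7. The genes of thalamus, septum and pallidum, which neighbour the striatum, had a list median of -0.85, with 2 of 25 called lower and 44.6% of their summed marker CPM left beside 41.9% for 4 precursor markers, and the part of dissection in the precursor result was not tested.

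Pdgfra, the receptor of the growth factor that keeps precursors dividing (NCBI gene 18595; chromosome 5, 75151322 to 75198206, GRCm38), was at 6.29, 6.15 and 6.34 log2 CPM on vehicle and at 5.32, 4.38 and 4.71 on PLX3397. It kept 37.6% of its CPM (change -1.46 ± 0.22, limma adjusted p = 0.00420). Gpr17, a receptor of cells about to differentiate, went from 6.29, 6.26 and 6.15 to 5.0, 4.95 and 4.77 (change -1.33 ± 0.15, adjusted p = 0.000734). The spread within each group of Gpr17 was under 0.25 log2 units, small beside the difference. Sox6, a transcription factor that holds precursors undifferentiated, went from 5.30, 5.09 and 4.91 to 3.85, 3.49 and 3.71 (change -1.42 ± 0.22, adjusted p = 0.00549). Ptprz1, a receptor phosphatase of precursors and astrocytes (chromosome 6, 22875315 to 23052916), went from 8.22, 8.28 and 8.05 to 6.14, 6.57 and 6.87 (change -1.66 ± 0.22, adjusted p = 0.00237). With the GC and length trend removed the change of Ptprz1 was -0.82, while those of Pdgfra, Gpr17 and Sox6 were -1.53, -1.13 and -1.22.

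The precursor list did not fall throughout. Olig1 and Olig2, the factors that specify the whole oligodendrocyte lineage, were at 7.31, 7.28 and 7.12 log2 CPM against 7.00, 7.15 and 6.89, and at 5.42, 5.54 and 5.21 against 5.16, 4.75 and 4.99. Their changes of -0.22 ± 0.18 (limma adjusted p = 0.395) and -0.42 ± 0.20 (adjusted p = 0.152) were not called. Neu4, a sialidase of precursors, and Tmem100 changed by -1.12 ± 0.24 (adjusted p = 0.0172) and -0.91 ± 0.20 (adjusted p = 0.0189). Their calls ended without vehicle library 1 (0.0781 and 0.0889) or 2 (0.0651 and 0.0622). That of Tmem100 also ended without PLX3397 library 2 (0.0516) or with the GC and length trend removed (0.171).

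At the next stage of the lineage fewer genes were called. Of 20 measured genes of newly formed oligodendrocytes (22 listed), 4 fell (20%, beside 8.3% of all genes) and 0 rose, with a median of -0.23. The count of falls was 1 without vehicle library 1 or 2 and 2 once the GC and length trend was taken out. Zfp488, a repressor that promotes differentiation, was at 2.31, 2.39 and 2.31 log2 CPM on vehicle and at 1.36, 0.87 and 1.01 on PLX3397 (change -1.25 ± 0.25, limma adjusted p = 0.0137). Itpr2, a calcium release channel that marks these cells, changed by -1.37 ± 0.28 (adjusted p = 0.0157). Both calls ended without vehicle library 1 (0.0659 and 0.0658) or 2 (0.0637 and 0.0732). That of Zfp488 also ended with the GC and length trend removed (0.0593). Bcas1, another marker of the stage, changed by -0.11 ± 0.30 (adjusted p = 0.826).

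Myelin genes were not lower as a group. Of 34, all measured, 1 fell (2.94%) and 0 rose, with a median of 0.10. Over all genes 8.3% fell and 5.93% rose. Mbp, the myelin basic protein, was at 12.79, 12.78 and 12.02 log2 CPM on vehicle and at 12.92, 12.64 and 12.28 on PLX3397 (change 0.08 ± 0.32, limma adjusted p = 0.873). In Mbp, vehicle library 3 was the lowest of its group and the groups overlapped. The called gene was Tspan2, a tetraspanin of oligodendrocytes (change -0.88 ± 0.20, adjusted p = 0.0193). Its call ended without vehicle library 1 (0.0886) or 2 (0.0836), or with the GC and length trend removed (0.0997).

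**Figure D2:**
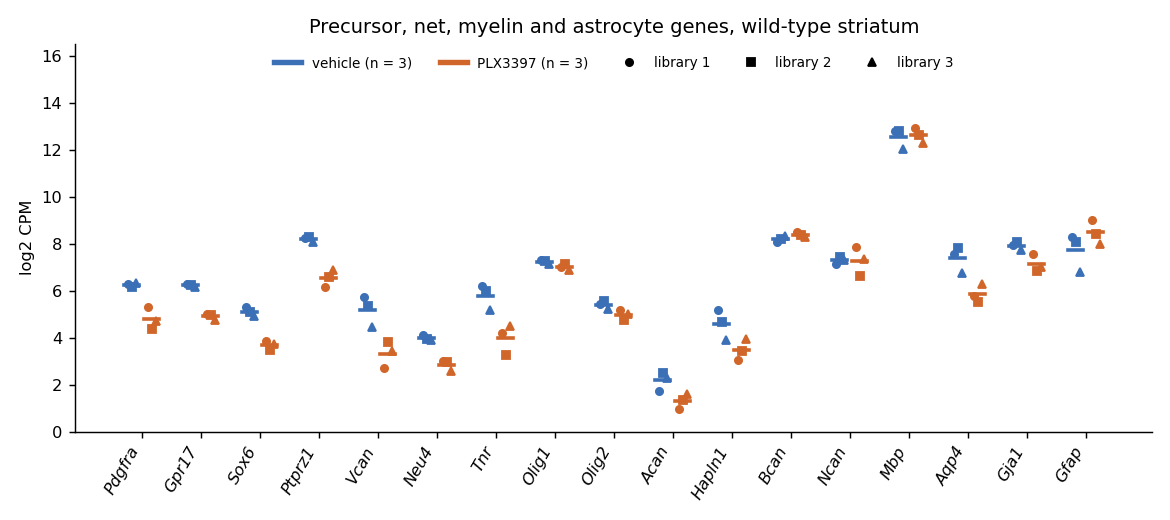
Level (log2 CPM) of 17 genes of oligodendrocyte precursors, perineuronal nets, myelin and astrocytes in each wild-type library (vehicle blue, PLX3397 orange, bar at the mean of n = 3 mice, symbols for library numbers). Pdgfra, Gpr17, Sox6 and Ptprz1 separate by group, Gpr17 at 6.15 to 6.29 against 4.77 to 5.0, while Olig1, Bcan, Ncan and Mbp overlap.

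Of 30 astrocyte genes 4 were lower (13.3%, beside 8.3% of all genes) and 0 higher, with a median of -0.01. The count was 0 without vehicle library 1 or 2 and 2 without PLX3397 library 2. In 8 of the 30 all PLX3397 values were below all vehicle values, beside 17.3% of all genes. Summed over 4 astrocyte markers, the vehicle libraries had 1212 to 1341 CPM and the PLX3397 libraries 759 to 969 (66.2% left), without overlap. Aqp4, the water channel of astrocyte endfeet, was at 7.56, 7.81 and 6.76 log2 CPM on vehicle and at 5.77, 5.51 and 6.28 on PLX3397 (change -1.53 ± 0.27, limma adjusted p = 0.0102). Gja1, the gap junction protein connexin 43, went from 7.93, 8.07 and 7.74 to 7.57, 6.83 and 7.01 (change -0.78 ± 0.20, adjusted p = 0.0311). The groups of both genes were separate, but both calls ended without vehicle library 1 (0.0574 and 0.106) or 2 (0.0523 and 0.117). That of Gja1 also ended without PLX3397 library 2 (0.0845) or 3 (0.0707), or with the GC and length trend removed (0.074). Gfap, the intermediate filament that rises in reactive astrocytes, was at 8.28, 8.07 and 6.78 on vehicle and at 9.02, 8.42 and 8.0 on PLX3397. Its groups overlapped, and its change of 0.77 ± 0.58 was not called (adjusted p = 0.373). On the list of reactive astrocyte genes, 29 of 38 were measured, 1 rose and 1 fell, with a median of 0.19.

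On the vascular lists the shares called were near or below those of all genes (5.93% higher and 8.3% lower). Of 32 endothelial genes 2 rose (6.25%) and 1 fell (3.125%), with a median of 0.23. Of 17 measured genes of pericytes and smooth muscle (18 listed), 1 rose and 1 fell (5.88% each). Vwf, the clotting factor stored in endothelium, was at 1.46, 2.46 and 2.73 log2 CPM on vehicle and at 4.79, 2.89 and 3.58 on PLX3397 (change 1.54 ± 0.47, limma adjusted p = 0.0497). PLX3397 library 1, the library high in choroid plexus genes, was the highest, and the adjusted p was 0.0993 without it, 0.0768 without PLX3397 library 3, and 0.177 and 0.114 without vehicle library 1 or 2. With the GC and length trend removed the adjusted p of Vwf was 0.0821. Icam2, an adhesion molecule of endothelium and leukocytes, rose by 1.43 (SE 0.33, adjusted p = 0.0219). Its call ended without vehicle library 1 (0.0794) or 2 (0.0637) or PLX3397 library 2 (0.0505), or with the GC and length trend removed (0.0572). Of 21 measured genes of meningeal fibroblasts and 19 of choroid plexus, 0 were called. Ttr, the transthyretin of choroid plexus, was at 9.89 log2 CPM in PLX3397 library 1 and at 4.74 to 6.09 in the other wild-type libraries, and whether choroid plexus tissue has a part in other changes was not tested beyond the fits without that library.

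The labels tie the series to the extracellular matrix and to perineuronal nets, the proteoglycan coats of some neurons. Of 23 measured genes for lecticans, link proteins, tenascins and phosphacan (26 listed), 5 fell and 0 rose, with a median of -0.20. The falls were 21.7% of these genes, beside 8.3% of all genes. The count was 1 without vehicle library 1 or 2 and 2 without PLX3397 library 2. Of these 5, Vcan (versican), Tnr (tenascin-R) and Ptprz1, whose shed form is phosphacan, are also on the precursor list. Vcan was at 5.74, 5.35 and 4.44 log2 CPM on vehicle and at 2.72, 3.80 and 3.44 on PLX3397, and Tnr at 6.21, 5.99 and 5.17 against 4.20, 3.28 and 4.50. In both, vehicle library 3 was the lowest of its group but still above every PLX3397 library. Without vehicle library 1 or 2, the adjusted p by limma was 0.0798 and 0.0732 for Vcan and 0.106 and 0.0949 for Tnr.

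The genes that are more specific to nets were near the threshold or far from it. Acan, the core proteoglycan aggrecan, was at 1.72, 2.51 and 2.30 log2 CPM on vehicle and at 0.96, 1.34 and 1.59 on PLX3397 (change -0.88 ± 0.26, limma adjusted p = 0.0478). Hapln1, the link protein, was at 5.18, 4.65 and 3.88 against 3.04, 3.41 and 3.94 (change -1.11 ± 0.33, adjusted p = 0.0454), with groups that overlapped. The calls held in 6 of 18 and 8 of 19 alternatives. That of Acan ended without any 1 of PLX3397 libraries 1 and 2 and the 3 vehicle libraries (0.0677 to 0.171), and that of Hapln1 without PLX3397 library 1 (0.0938) or 2 (0.0966) or vehicle library 1 (0.167) or 2 (0.136). Removal of the GC and length trend also ended both calls (0.139 for Acan and 0.198 for Hapln1). Bcan (change 0.17 ± 0.16, adjusted p = 0.461) and Ncan (change -0.02 ± 0.31, adjusted p = 0.979), the brain lecticans brevican and neurocan, were not called. Of 39 measured enzymes of chondroitin and heparan sulfate, 0 were called without vehicle library 1 or 2. In the full fit 2 of these enzymes rose (5.13%) and 3 fell (7.69%), near the 5.93% and 8.3% of all genes. Among them Chpf, which lengthens chondroitin chains, went from 5.90, 5.92 and 6.23 to 6.70, 6.76 and 6.67 (change 0.70 ± 0.14, adjusted p = 0.0140), a call that ended without vehicle library 1 (0.0712) or 2 (0.0667). Of 81 collagens, laminins and other matrix genes 1 rose and 1 fell. Of 48 matrix proteases and their inhibitors 4 fell, at the 8.3% of all genes, and 1 without vehicle library 1 or 2.

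**Figure D3:**
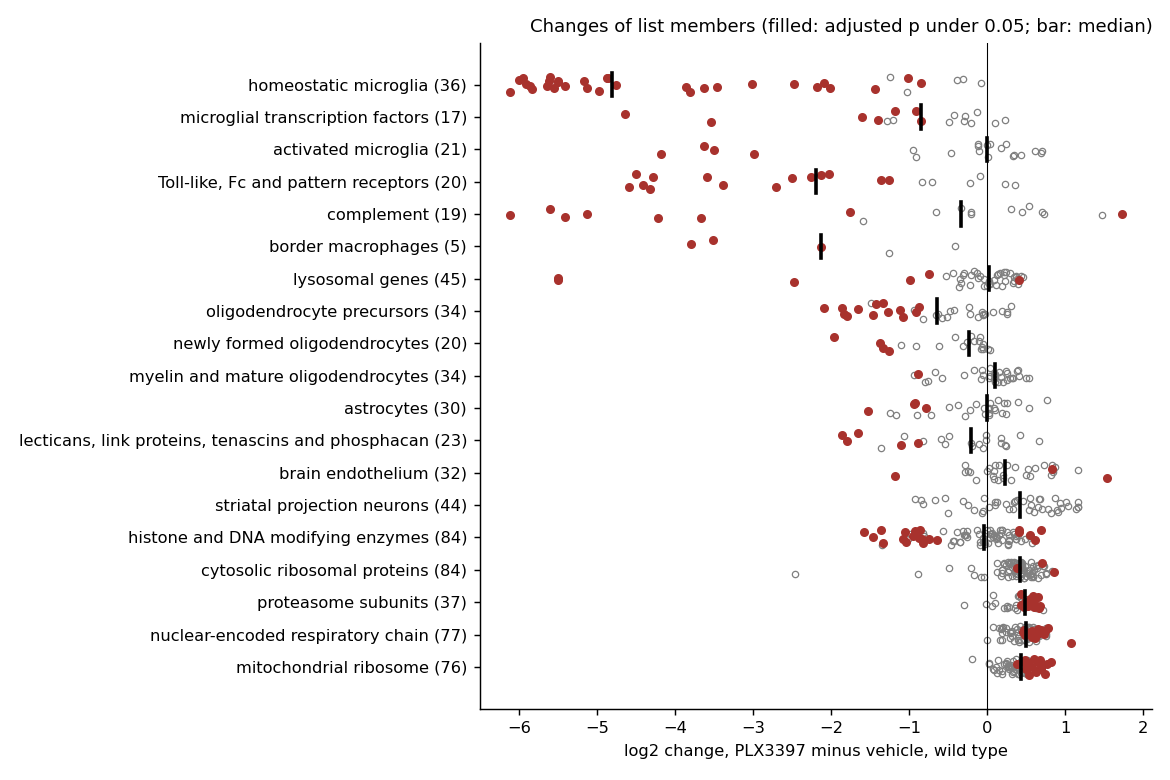
Log2 change on PLX3397 in wild type of every measured gene on 19 lists, with the number of genes in brackets, filled points for called genes (limma, Benjamini-Hochberg) and a bar at the median. The homeostatic microglia list sits at a median of -4.80, precursor genes at -0.64, and the last 3 lists, of the proteasome and mitochondria, at 0.43 to 0.49.

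Genes of striatal projection neurons, the main neurons of the striatum, were not called. Of 44, all measured, 0 passed the threshold, beside 5.93% of all genes called higher and 8.3% lower, and the median was 0.42. In 8 of the 44 all PLX3397 values were above all vehicle values, a share near the 18.8% of all genes. Penk, the enkephalin precursor of the indirect pathway, was at 10.07, 10.15 and 9.29 log2 CPM on vehicle and at 11.03, 10.53 and 10.99 on PLX3397 (change 1.01 ± 0.38, limma adjusted p = 0.0931). Its groups did not overlap, and it was called in 1 of 19 alternatives. Pdyn, the dynorphin precursor of the direct pathway (change 0.36 ± 0.40, adjusted p = 0.558), and the dopamine receptors Drd1 (change 0.66 ± 0.60, adjusted p = 0.462) and Drd2 (change 0.91 ± 0.57, adjusted p = 0.284) were not called. Drd2 stood at 6.99, 7.43 and 5.99 against 8.52, 6.95 and 7.67, and vehicle library 3 was the lowest and PLX3397 library 1 the highest, which are also the extremes of the summed projection neuron markers. Slc17a7, the glutamate transporter of cortical neurons, had an SE of 1.45 log2 units, so a several-fold change in it could go uncalled. Of 36 cortical genes, 30 immediate early genes and 34 measured cell cycle genes, 0 were called, beside the same shares of all genes.

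Few rises were large. Xlr3b, a gene of an X-linked multicopy family (NCBI gene 574437; chromosome X, 73192150 to 73202930), was at 0.04, -0.47 and -0.08 log2 CPM on vehicle and at 2.55, 2.61 and 2.44 on PLX3397. Its groups did not overlap, and its change of 2.70 ± 0.45 (limma adjusted p = 0.00698) was the largest held rise. Since the family has near-identical copies, reads cannot be assigned to this copy with certainty, and Xlr3a of the same family changed by 1.10 ± 0.51 (adjusted p = 0.152). Tnni1, a troponin subunit, rose by 2.12 (SE 0.51, adjusted p = 0.0254), and Depp1, a target of FOXO factors, by 2.19 (SE 0.64, adjusted p = 0.0453). Without any 1 wild-type library except PLX3397 library 1 or 3 for Tnni1, and without any 1 of the 6 for Depp1, these calls ended (0.0569 to 0.0843 and 0.0569 to 0.164). Removal of the GC and length trend also ended them (0.0528 for Tnni1 and 0.106 for Depp1).

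The other held rises were below 2-fold and evenly spread over the libraries. Rbm42, an RNA-binding protein, was at 5.47, 5.50 and 5.73 log2 CPM on vehicle and at 6.46, 6.61 and 6.48 on PLX3397 (change 0.95 ± 0.13, limma adjusted p = 0.00276). Hras, the small GTPase of growth factor signalling, went from 7.03, 6.97 and 6.74 to 7.64, 8.05 and 7.83 (change 0.92 ± 0.13, adjusted p = 0.00375). Gnb2, a beta subunit of G proteins, went from 8.28, 8.38 and 8.36 to 9.16, 9.36 and 9.12 (change 0.87 ± 0.13, adjusted p = 0.00380). In each, all PLX3397 values were above all vehicle values by more than the spread in either group. Nat14 and Srm, the spermidine synthase, rose by 0.85 (SE 0.10, adjusted p = 0.00133) and 0.80 (SE 0.12, adjusted p = 0.00403). With the GC and length trend removed, the changes of these 5 genes were 0.63, 0.58, 0.49, 0.44 and 0.42, and all were still called.

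In 3 lists of genes for large housekeeping complexes, every call was a rise, and the rises were small. Of 77 nuclear-encoded subunits of the respiratory chain, 15 rose and 0 fell, with a median of 0.49. Of 76 proteins of the mitochondrial ribosome 16 rose and 0 fell (median 0.43), and of 37 proteasome subunits 13 rose and 0 fell (median 0.49), against 5.93% of all genes called higher. Ndufs3, a core subunit of complex I, was at 5.84, 5.96 and 5.87 log2 CPM on vehicle and at 6.54, 6.86 and 6.49 on PLX3397 (change 0.74 ± 0.13, limma adjusted p = 0.0111). Psmd3, a subunit of the regulatory particle of the proteasome, went from 6.68, 6.73 and 6.99 to 7.35, 7.68 and 7.42 (change 0.68 ± 0.15, adjusted p = 0.0176). Mrpl2, a protein of the large mitochondrial ribosomal subunit, went from 4.65, 4.54 and 4.78 to 5.17, 5.77 and 5.35 (change 0.77 ± 0.17, adjusted p = 0.0190). In all 3 genes PLX3397 library 2 was the highest, as it was for the mean of each list, at 7.04 for the respiratory chain against 6.41 and 6.63 in the other PLX3397 libraries.

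These counts depended on which libraries were fitted. Without PLX3397 library 1 they were 52 for the respiratory chain, 34 for the mitochondrial ribosome and 28 for the proteasome. Without vehicle library 1 each was 0, without PLX3397 library 2 they were 1, 2 and 0, and in the fit of the 6 wild-type libraries alone each was 0. Ndufs3 lost its call without vehicle library 1 (limma adjusted p = 0.0594), and Psmd3 and Mrpl2 theirs without vehicle library 1 (0.0838 and 0.0777) or 2 (0.0760 and 0.0813), with Psmd3 also at 0.0510 without PLX3397 library 2. The smaller rises of Ndufa9 (0.49 ± 0.11, adjusted p = 0.0209), Mrps28 (0.69 ± 0.14, adjusted p = 0.0157) and Psmb2 (0.53 ± 0.13, adjusted p = 0.0248) ended without vehicle library 1 (0.0917, 0.0691 and 0.108) or 2 (0.0756, 0.0688 and 0.0853), and those of Ndufa9 (0.0558) and Psmb2 (0.0629) without PLX3397 library 2. Removal of the GC and length trend also ended the calls of Mrpl2 (0.067), Mrps28 (0.0891) and Psmb2 (0.074). Ndufs3 (0.0107), Psmd3 (0.0409) and Ndufa9 (0.0154) were still called.

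Cytosolic ribosomal proteins had a median of 0.43, with 3 of 84 higher, fewer than the 5.93% of all genes. The heat shock and integrated stress response list had 7 of 36 higher and 1 lower (median 0.31), but the count of rises was 1 with the GC and length trend removed, 0 without vehicle library 1 or 2 and 2 without PLX3397 library 2. Among these Asns, the asparagine synthetase induced when amino acids are short, rose by 0.61 (SE 0.12, limma adjusted p = 0.0128), and Hsp90ab1, a constitutive chaperone, by 0.54 (SE 0.15, adjusted p = 0.0352). The call of Asns ended without vehicle library 1 (0.0676) or 2 (0.0637), and that of Hsp90ab1 also without PLX3397 library 2 (0.0623) or 3 (0.0823), after 0.135 and 0.115 without vehicle library 1 or 2, and with the trend removed (0.188). Of the 14 genes of the mitochondrial genome 2 fell (14.3%, beside 8.3% of all genes) and 0 rose, with a median of -0.40. With the GC and length trend removed, which could be tested for 12 of the 14, 0 fell, 1 rose and the median was 0.20. The sign of the median turned, but the medians before and after cover unlike sets of genes. ND5 was at 12.36, 11.66 and 11.22 log2 CPM on vehicle and at 9.94, 10.30 and 10.69 on PLX3397 (change -1.44 ± 0.38, adjusted p = 0.0342), and ND2 changed by -1.07 ± 0.29 (adjusted p = 0.0356). With the GC and length trend removed these were -0.61 (adjusted p = 0.236) and -0.26 (adjusted p = 0.591). Both calls also ended without PLX3397 library 1 (0.0666 and 0.0744) or 2 (0.0745 and 0.0725) or vehicle library 1 (0.134 and 0.138) or 2 (0.1 and 0.113).

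Of 84 histone and DNA modifying enzymes 15 fell and 5 rose, with a median of -0.04, beside 8.3% lower and 5.93% higher over all genes. The 15 falls were 2 without vehicle library 1 or 2, 5 without PLX3397 library 2 and 7 once the GC and length trend was taken out, and the 5 rises were 0 without vehicle library 1 or 2. Only 2 calls were held. Kmt2c, a methyltransferase of histone H3 at enhancers, was at 7.23, 7.26 and 6.77 log2 CPM on vehicle and at 5.38, 5.57 and 5.94 on PLX3397 (change -1.46 ± 0.23, limma adjusted p = 0.00586). Hdac9, a class II deacetylase, went from 4.56, 4.69 and 4.47 to 3.21, 3.69 and 3.70 (change -1.04 ± 0.17, adjusted p = 0.00698). These were the 2 held calls, and with the trend removed their changes were -0.97 and -0.93. At the synapse, Homer2, a scaffold of metabotropic glutamate receptors, went from 5.94, 6.17 and 6.14 to 4.15, 4.94 and 4.60 (change -1.52 ± 0.23, adjusted p = 0.00473; -1.77 with the trend removed), also held. Gabrb1, a GABA-A receptor subunit, changed by -1.23 ± 0.31 (adjusted p = 0.0283), but by -0.43 (adjusted p = 0.405) with the trend removed, and its call ended without vehicle library 1 (0.109) or 2 (0.102) or PLX3397 library 1 (0.0517) or 3 (0.0588).

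Held falls outside the myeloid lineage also included 4 genes chosen after their values were seen. Peg3, an imprinted zinc finger gene expressed from the paternal copy, was at 8.30, 8.20 and 8.69 log2 CPM on vehicle and at 6.05, 6.30 and 6.93 on PLX3397 (change -1.97 ± 0.33, limma adjusted p = 0.00750). Epha3, an ephrin receptor, went from 3.19, 3.04 and 2.36 to 0.52, 1.03 and 1.46 (change -1.86 ± 0.31, adjusted p = 0.00721). Abca1, the cholesterol exporter that loads apolipoproteins, went from 6.23, 6.47 and 5.83 to 4.91, 4.50 and 4.96 (change -1.39 ± 0.23, adjusted p = 0.00652). Lifr, a receptor subunit for leukaemia inhibitory factor, changed by -1.11 ± 0.17 (adjusted p = 0.00542). In none of the 4 did the groups overlap.

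The small changes moved with the base composition of the transcript. Across 14305 genes, which are not independent replicates, Spearman's rho between the change and the GC content of the transcript was 0.51. In the fifth of genes with the lowest GC content (33.05% to 45.35%) the median change was -0.52, with 620 genes lower and 14 higher, and in the fifth with the highest (56.31% to 75.65%) it was 0.30, with 47 lower and 374 higher. Within libraries, the rho of a gene's deviation from its mean with GC content was -0.509, -0.482 and -0.133 in vehicle libraries 1 to 3 and 0.422, 0.291 and 0.154 in PLX3397 libraries 1 to 3. All vehicle libraries were below 0 and all PLX3397 libraries above it, and vehicle library 3 and PLX3397 library 3 were nearest to 0. The cause of this relation was not tested.

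With a smooth trend on GC content and length removed from each library, 413 genes were higher (2.89%) and 573 lower (4.01%), and 667 of these 986 had been called in the same direction. Falls of microglial genes were as large without the trend, with 30 of 36 lower and a median of -4.73, and the change of Csf1r was -6.18 (limma adjusted p = 0.000574). The median of the precursor list was -0.66. Those of the respiratory chain, the mitochondrial ribosome and the proteasome were 0.33, 0.29 and 0.38, with 12, 17 and 11 genes higher.

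**Figure D4:**
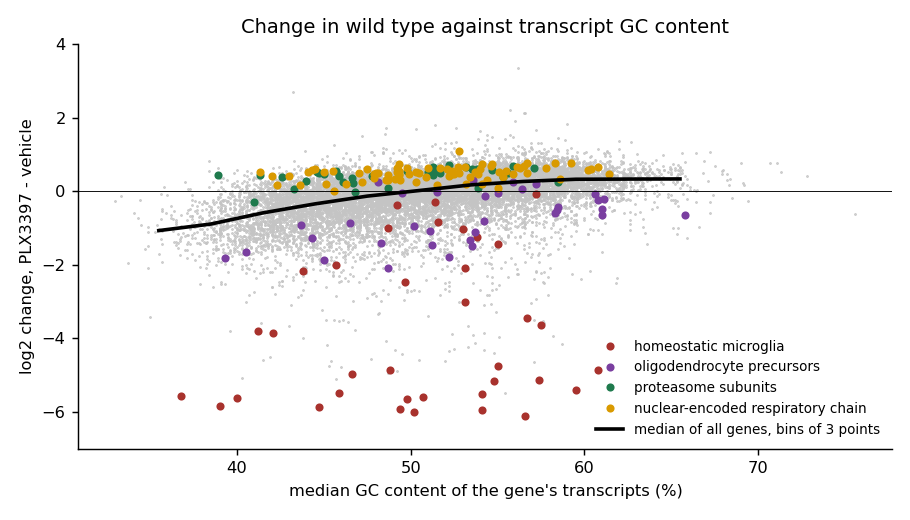
Log2 change on PLX3397 in wild type (vertical axis) against median transcript GC content in percent (horizontal axis), with each grey point a gene, coloured points for 4 lists and a black line at the median in bins of 3 percentage points. The line rises from left to right (rho 0.51 over 14305 genes), and most microglial genes lie far below it, at low and at high GC content.

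The same drug in R6/2 striatum gave 160 genes lower (1.04%) and 9 higher (0.0585%) by limma. The change in R6/2 differed from that in wild type for 2617 genes (17%; 5561 at an unadjusted p under 0.05), a count of 537 without vehicle library 1, 625 without vehicle library 2 and 804 once the GC and length trend was taken out. Among the microglial genes the changes were much the same size, with medians of -4.80 in wild type and -4.79 in R6/2, and the difference was called for 4 of 36, Tmem119, Tgfbr1, Hpgds and Cst3. Tmem119 fell by 4.87 in wild type and by 6.05 in R6/2 (difference -1.18, adjusted p = 0.0489). Tgfbr1, a receptor subunit for TGF-beta, changed by -2.17 in wild type and -1.06 in R6/2 (difference 1.12, adjusted p = 0.0233), and Hpgds by -3.86 and -1.63 (difference 2.23, adjusted p = 0.0346).

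Precursor genes had a median of -0.12 in R6/2, where 0 of 34 were called, and for 10 of the 34 the difference between genotypes was called, beside 17% of all genes. Pdgfra changed by -1.46 in wild type and -0.22 in R6/2 (difference 1.24, limma adjusted p = 0.0252), and Sox6 by -1.42 and 0.61 (difference 2.03, adjusted p = 0.0139). Proteasome genes had a median of -0.18 in R6/2 with 12 of 37 differences called. For respiratory chain genes (median -0.14, 14 of 77 called) and mitochondrial ribosome genes (median -0.13, 13 of 76 called) the share was near the 17% of all genes. Across genes, the R6/2 change had a rho of -0.471 with transcript GC content, opposite in sign to the wild type, and its part in these differences was not tested.

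**Figure D5:**
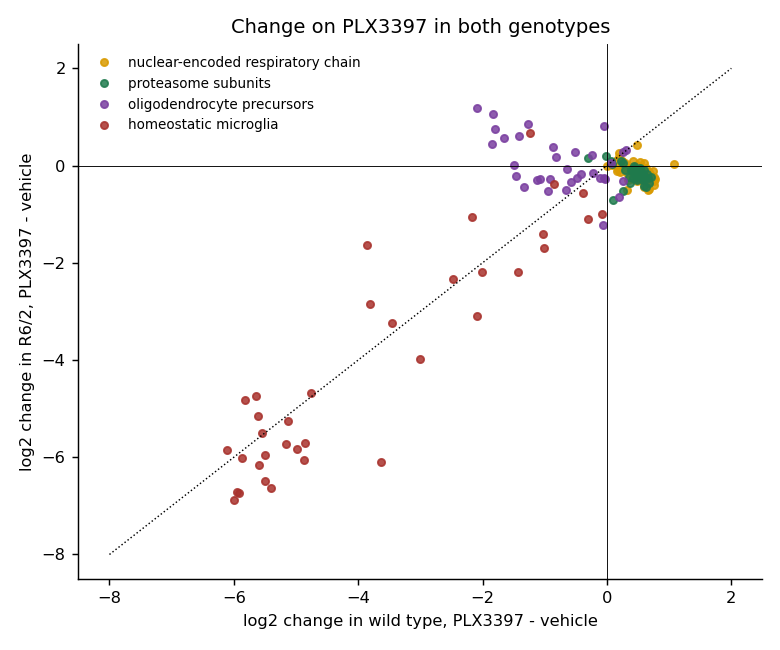
Log2 change on PLX3397 in R6/2 (vertical axis) against that in wild type (horizontal axis) for genes of 4 lists, each change from n = 3 against 3 mice with no shared libraries, and a dotted line where both are equal. Microglial genes lie along the line down to about -6 in both, while precursor genes lie left of 0 in wild type (median -0.64) and around 0 in R6/2 (median -0.12).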

How the data were processed

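RNA from hand-dissected frozen striatum was sequenced in 12 libraries, and per the submitters' processing notes the authors used STAR, featureCounts, edgeR and limma with the mm10 build; versions and counting options are not given in the sources used here, so near-identical, overlapping and antisense genes may share reads. The deposited values are on a log2 scale and behave as log2 CPM with a prior of about 2 reads: all libraries share the lowest value, and 100% of values gave a whole number of reads to within 0.1 read. The genes were already filtered when deposited. Positions came from RefSeq (15074 of 15397 genes matched), GC content and length from GENCODE M21 (92.9% of genes).

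The log2 values were used as deposited. limma 3.58.1 (R 4.3.3) fitted 4 group means over 12 libraries with an intensity trend, two-sided, with Benjamini-Hochberg adjustment over 15397 genes. Groups come from the labels, which give 3 mice per group. The 19 alternatives were leaving out each wild-type library or a pair of libraries high in choroid plexus genes, fitting 6 libraries, a replicate block, other scaling, priors and filters, no intensity trend, limma-voom, a GC and length trend taken out, a cortical covariate and array weights. In 5 simulations of this comparison with 200 of 15397 genes changed, 12%, 42.8%, 75.2% and 90.8% of 1.5-, 2-, 4- and 8-fold changes were recovered, with 6 false calls on average. The simulated counts were drawn for each gene separately, without the GC trend or the dissection differences of the real libraries. The recovery and the false calls therefore do not cover differences of that kind.

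The members and lists were chosen with earlier results of these data known. Named genes are the 10 largest rises and falls with no overlap and at least 1 CPM, the 10 smallest p, up to 4 called and 2 uncalled genes of each list, fixed genes such as Csf1r, and the largest held calls; the text names a part of them, and others were chosen after their values were seen; a few withheld genes are not reported here. Tables and plots used pandas 2.3.3, matplotlib 3.10.9, scipy 1.17.1 and numpy 2.4.6 under Python 3.11.15.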

Additional observations from a re-analysis of the deposited data

Results flagged for a closer look

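The change on PLX3397 in R6/2 differed from that in wild type for 47 of the 129 genes named with a test. The test was limma's on the difference itself, at an adjusted p under 0.05. Over all genes the share was 17%. Many of the 129 were named for their change in wild type, whose libraries also enter the difference, so their share cannot be compared with that of all genes. The differences below are log2 values, R6/2 minus wild type. Among genes of myeloid cells and lysosomes, the ligand Il34 and Ly6c1 they were -1.12 for Il34, -1.18 for Tmem119, 1.12 for Tgfbr1, 2.23 for Hpgds, -0.91 for Cst3, -2.28 for Irf8, -0.58 for Ctsb, 1.94 for Dock2, 1.14 for Ids, -0.71 for Ctsa and -1.06 for Ly6c1. Among genes of oligodendrocyte precursors, newly formed oligodendrocytes, astrocytes and the matrix they were 1.24 for Pdgfra, 0.89 for Gpr17, 2.03 for Sox6, 2.23 for Ptprz1, 2.30 for Vcan, 2.55 for Tnr, 1.6 for Zfp488, 1.39 for Itpr2, 1.46 for Aqp4, 0.99 for Gja1, 1.5 for Hapln1 and -0.84 for Chpf. Among genes with a rise in wild type they were -3.18 for Depp1, -1.79 for Icam2, -1.25 for Rbm42, -1.24 for Hras, -1.24 for Gnb2, -1.25 for Nat14, -1.12 for Srm, -1.04 for Psmd3, -0.64 for Psmb2, -0.85 for Ndufs3, -0.52 for Ndufa9, -0.91 for Mrps28, -1.06 for Mrpl2, -0.63 for Asns and -0.73 for Hsp90ab1. Among other genes with a fall in wild type they were 2.14 for Kmt2c, 1.22 for Hdac9, 1.23 for Homer2, 2.26 for Gabrb1, 2.03 for ND5, 1.92 for Abca1, 1.19 for Lifr, 1.91 for Epha3 and 3.44 for Peg3. The genes in the last 2 sets are grouped by their direction in wild type, whose libraries also enter the difference, so the shared sign within a set is set largely by that choice. The relation of the change to transcript GC content also had opposite signs in the 2 genotypes (rho 0.51 and -0.471 across genes), and its part in these differences was not tested.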

How the results depend on the processing

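Against 2191 calls, the count was 986 with the GC and length trend removed, 7437 with array weights, 351 in the fit of 6 libraries and 3560 without PLX3397 library 1 and R6/2 vehicle library 1 together. limma-voom on the recovered reads gave 1978. Leaving out 1 wild-type library gave 228 to 2716 calls. For the difference between the genotypes (2617 calls) the same removal of the trend gave 804, array weights 6596 and a cortical covariate 1039, and leaving out 1 library gave 537 to 3532. Replicate numbers did not pair the libraries (same-numbered wild-type libraries correlated at -0.321 to 0.0204 in their deviations, and 0 of 6 were closest to their own number), and with the replicate block the counts were 1110 and 1432. Of 94 called genes named with a test, 59 were held; calls ended most often without vehicle library 1 or 2 (34 each), and 0 directions reversed. The planned filter of 1 CPM in 3 libraries removed 0 genes; a filter of 5 CPM in 6 libraries, chosen after seeing the data, kept 12108 genes. In simulations without the GC trend or the dissection differences of the real libraries, 12% of 1.5-fold changes were recovered. Many small changes could thus go uncalled at this size.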
